A study of Mus with 4 samples.

Results

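Collagens are proteins of the extracellular matrix whose chains wind around one another into a rope-like helix. Fibrillar collagens build the fibrils of bone, cartilage, ligament and connective tissue, basement membrane collagens form sheet-like networks under epithelia and around vessels, and the remaining types coat fibrils, make beaded filaments or span cell membranes. In the cochlea, types II, IX and XI are known from the tectorial membrane and from cartilage, type I from the bony capsule, and type IV from the basement membranes of the stria vascularis and the basilar membrane.

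The collagen genes were taken by symbol, as all listed genes named Col, a number, the letter a and a number. This gave 43 of the 21230 genes in the table, in 11 fibrillar, 8 basement membrane and 24 other collagens. The annotation used for gene names holds 44 such symbols, and the remaining one, Col6a4, was not analysed here. The rule itself uses no measured value.

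RNA was sequenced from cochlear tissue in 4 libraries of mice that all carry a nonsense change in Otof, at coding position 1315 and named R439X in the labels, which cuts short otoferlin, a protein of inner hair cell synapses. Of the 4 libraries, 2 came from mice without treatment and 2 from mice treated with RESTARTv3, a guide RNA, a DKC1 isoform and a transfer RNA that together let ribosomes read through the stop codon. Per the methods, the system was carried by AAVie, an adeno-associated virus vector, and injected through a semicircular canal of the left ear of 4-week-old mice. The labels give neither zygosity, sex nor age at collection. The methods call the libraries of a group independent biological replicates, while the labels do not tie them to separate mice, and p-values measure the spread between these libraries. No vector-injected control library was used here, so injection, vector and RESTARTv3 cannot be told apart.

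The deposited unit is RPKM, reads divided by gene length and by the total of the library. Gene length here is the whole span of the gene with its introns, so a gene of long span lies low in RPKM at a given number of reads, and RPKM is not a measure of transcript number between genes. Whole reads were recovered from RPKM and divided by a median-of-ratios factor for each library, and are called scaled reads below. The library totals ranged from 39650172 to 71144247 reads. RESTARTv3 replicate 2 stood apart in that 29.6% of its total fell on listed genes, against 54.4 to 62.6% in the other libraries, which lowers its RPKM values and its shares of the total, but not its scaled reads. The 2 untreated libraries, called A and B with no order implied, differed widely over all genes: the quartiles of the log2 ratio of A to B in scaled reads were -0.87 and 0.91, against -0.17 and 0.20 for the RESTARTv3 pair. Of 13 cochlear marker genes 12 were listed. On recovered reads 9 of the 12 had a log2 change below 0, against 49.9% of all tested genes, with a median of -0.84. Untreated A was highest for 8, against 43.1%, and for 9 both RESTARTv3 libraries lay below both untreated ones, against 21.4%. Without untreated A 12 of 12 were below 0, against 50.6% of all genes, with a median of -0.25. The part of cochlear content in the collagen values was not tested. Coch, a protein of the spiral ligament and limbus, was at 0.17 and Otos, also of fibrocytes, at -1.21. Markers of bone (11 of 11), cartilage (7 of 8), skeletal muscle (9 of 10) and macrophages (7 of 8) were also listed, so collagen reads can come from several tissues of the dissected cochlea. In such bulk tissue, fewer cells of a type and less RNA per cell cannot be told apart.

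Collagen RNA took a far larger share of untreated A than of the other libraries. The 43 genes held 2.27 and 0.655% of the library total in untreated A and B, and 0.503 and 0.321% in RESTARTv3 replicates 1 and 2. Untreated A stood apart, and the other untreated library lay closer to the RESTARTv3 libraries than to it. The untreated mean was 1.46% ± 1.142 (SD, n = 2) and the RESTARTv3 mean 0.412% ± 0.129 (SD, n = 2), a difference of -1.05 percentage points in an exact permutation test whose smallest possible two-sided p was reached (p = 0.333). As a share of the reads of listed genes, the values were 4.17, 1.05, 0.840 and 1.08% in the same order, and the groups overlapped (exact permutation test, p = 0.667).

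**Figure D1:**
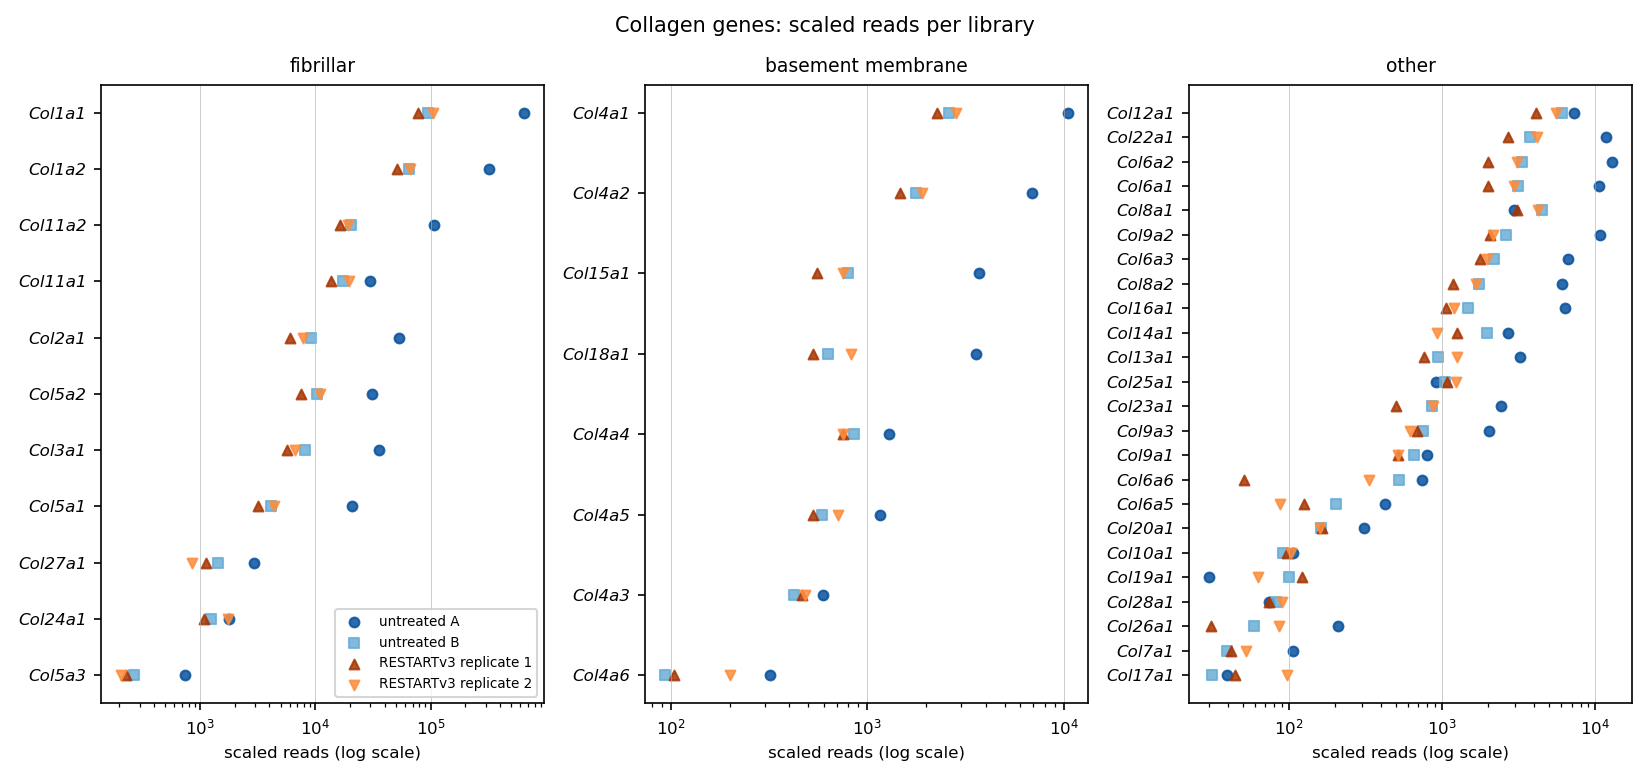
Scaled reads of each of the 43 collagen genes (log axis) in the 4 libraries, with fibrillar, basement membrane and other collagens in separate panels ordered by mean reads. Untreated A (dark circles) was the highest library for 38 of the 43 genes, while untreated B and both RESTARTv3 libraries lay close together for most of them.

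Levels spanned several orders of magnitude. Mean RPKM over the 4 libraries ran from 0.00486 to 238, and recovered reads of a collagen in a library from 20 to 425449. By RPKM, which divides by gene span, the leading genes were Col1a1, Col1a2, Col11a2, Col2a1 and Col3a1, in that order in all 4 libraries. By mean recovered reads the order differed, with Col11a1 (19733) above Col2a1 (15820.5) and Col5a2 (13570.5) above Col3a1 (12134.5). The type I chains alone, Col1a1 and Col1a2, which form the main fibril of bone, tendon and ligament, took 70.6 and 57.9% of collagen reads in untreated A and B and 59.8 and 60.3% in RESTARTv3 replicates 1 and 2. The Col1a2 part was nearly constant, at 23.3, 23.4, 23.6 and 23.2%. The Col1a1 part was 47.3% in untreated A against 34.5, 36.2 and 37.1% in the other libraries.

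The comparison of treated and untreated cochleae called no collagen. Only 11 collagens reached a mean of 1 RPKM, the minimum for the test on log2(RPKM + 0.5): 7 fibrillar, 0 basement membrane and 4 other. Of these, 0 passed an adjusted p of 0.05, as did 0% of all 5076 tested genes (limma trend, Benjamini-Hochberg). Unadjusted p was under 0.05 for 2 of the 11, Col2a1 and Col3a1, and for 72 of all genes. All 11 log2 changes lay below 0, with a median of -1.43, but the median of all tested genes was itself -0.41 on this scale, so the collagens lay 1.02 below it.

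On recovered reads all 43 collagens had the mean of 10 reads needed for the test. Again 0 passed the adjusted p, and the smallest one was 0.766 (limma voom, Benjamini-Hochberg), as did 0 of all 18485 tested genes, 396 of which had an unadjusted p under 0.05. Unadjusted p was under 0.05 for 3 collagens, Col14a1, Col6a6 and Col6a5, all lower in RESTARTv3 libraries, against 0.768% of all genes in that direction, and for 0 collagens in the higher direction, against 1.37% of all genes. The log2 change was below 0 for 38 of 43 collagens, against 49.9% of all tested genes, with a median of -1.02 against 0.002. Without untreated A, 32 of 43 lay below 0, against 50.6% of all genes, and the median was -0.16. Without untreated B, a fit in which untreated A alone stands for its group, the median was -1.77 and 31 of 43 collagens passed, all of them lower, as did 8706 of 18379 genes, with 26.2% of all genes called lower (limma voom, Benjamini-Hochberg). The size of the collagen difference and the count of calls thus changed with the untreated library used. Of the 33 collagens named by rule, the log2 change moved by over 1.5 times or to the other sign for 27 without untreated A, 27 without untreated B, 9 without RESTARTv3 replicate 1 and 7 without RESTARTv3 replicate 2.

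**Figure D2:**
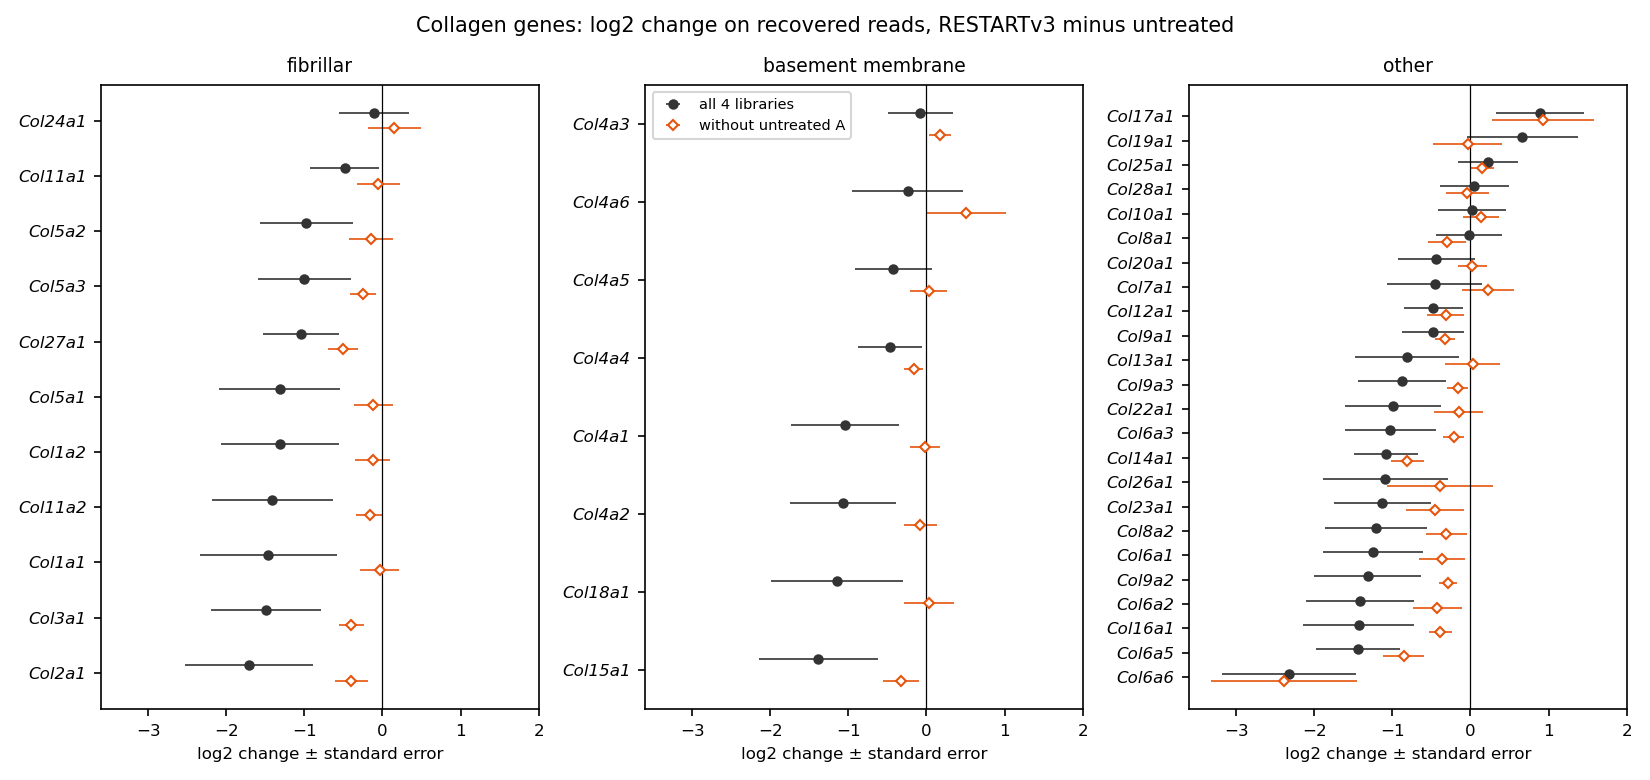
Log2 change of each collagen (RESTARTv3 minus untreated, limma voom on recovered reads) with its standard error, from all 4 libraries (filled circles) and without untreated A (open diamonds). With all libraries the median was -1.02, and without untreated A most values moved toward 0, to a median of -0.16, with Col6a6, Col6a5 and Col14a1 farthest below it.

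After scaling, both RESTARTv3 libraries lay below both untreated libraries for 19 of 43 collagens, against 21.4% of all tested genes. These were 5 fibrillar, 2 basement membrane and 12 other collagens. Both RESTARTv3 libraries lay above both untreated ones for 2 collagens, Col17a1 and Col25a1, against 17% of all genes. With untreated A left out, both RESTARTv3 libraries lay below untreated B for 20 of 43, against 36.1% of all genes, and above it for 6, against 26.2%. With untreated B left out these counts were 38, against 45.1% of all genes, and 4, against 45.8%.

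All 11 fibrillar collagens were highest in untreated A, and none passed the test. On recovered reads their log2 changes ran from -1.71 for Col2a1 to -0.11 for Col24a1, with a median of -1.31, and without untreated A the median was -0.15, with 10 of 11 below 0. In RPKM, Col1a1 had 638 and 134 in untreated A and B, and 108 and 70.7 in RESTARTv3 replicates 1 and 2. In scaled reads, which remove the difference in scale between libraries, these were 643404, 95363, 78105 and 105836. Untreated A was 6.75-fold above untreated B, and untreated B lay between the RESTARTv3 libraries. By limma voom the log2 change of Col1a1 was -1.46 ± 0.88 (standard error; Benjamini-Hochberg adjusted p = 0.766), and -0.03 ± 0.25 without untreated A.

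Col1a2, the partner chain in type I fibrils, was at 317621 and 64849 scaled reads in untreated A and B and 51044 and 66356 in RESTARTv3 replicates 1 and 2, with the same order of libraries as Col1a1. Its log2 change was -1.31 ± 0.76 (standard error). Col3a1, whose product mixes with type I in soft tissue, had 35583, 8229, 5683 and 6618 scaled reads in that order of libraries. Here both RESTARTv3 libraries lay below both untreated ones, with a log2 change of -1.49 ± 0.70, and of -0.40 ± 0.16 without untreated A.

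Type V chains start and limit fibril width. Col5a1 lay 5.07-fold and Col5a2 2.99-fold higher in untreated A than in B, with untreated B between the RESTARTv3 libraries for both. Col5a3, a chain of low abundance, had 749 and 267 scaled reads in untreated A and B and 229 and 208 in RESTARTv3 replicates 1 and 2. Col27a1, a fibrillar collagen of cartilage, had 2941, 1446, 1126 and 856. For these last 2 genes the groups did not overlap. The log2 changes without untreated A were -0.25 ± 0.16 for Col5a3 and -0.51 ± 0.19 for Col27a1 (standard errors).

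Types II, IX and XI share fibrils in cartilage and in the tectorial membrane, and human mutations in COL2A1, COL11A1 and COL11A2 are known to cause hearing loss. Col2a1, the type II chain, had 53674 and 9248 scaled reads in untreated A and B and 6053 and 7784 in RESTARTv3 replicates 1 and 2. Both RESTARTv3 libraries lay below both untreated ones, but untreated B was far nearer to them than to untreated A. The log2 change of Col2a1, the lowest among the fibrillar collagens, was -1.71 ± 0.81 (standard error), and -0.40 ± 0.21 without untreated A.

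Col11a2 had 107391, 20282, 16248 and 19363 scaled reads in the same order, again with untreated A standing apart and no overlap. Col11a1, the other main chain of type XI, had 29803, 17350, 13638 and 19424. Its libraries spread less, and untreated B lay between the RESTARTv3 libraries. The log2 changes were -1.41 ± 0.78 for Col11a2 and -0.48 ± 0.45 for Col11a1 (standard errors).

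The 3 type IX chains decorate type II fibrils. For all 3, both RESTARTv3 libraries lay below both untreated ones, against 21.4% of all tested genes. Col9a2 had 10639 and 2613 scaled reads in untreated A and B and 2062 and 2159 in RESTARTv3 replicates 1 and 2. Col9a3 had 2010, 747, 683 and 617. Col9a1 had 791, 654, 511 and 516, and so showed the lower RESTARTv3 values with untreated A and B close together. Without untreated A the log2 changes were -0.29 ± 0.11 for Col9a2, -0.16 ± 0.13 for Col9a3 and -0.33 ± 0.13 for Col9a1 (standard errors), and none passed. The summed level of the 7 listed cartilage markers was 24248 and 15795 scaled reads in untreated A and B and 13221 and 12752 in RESTARTv3 replicates 1 and 2. The members were split. Of the 6 with enough reads 4 were highest in untreated A, against 43.1% of all tested genes. Cnmd, made by cartilage cells and the marker with the most reads, was lowest there (4080, 7235, 6180 and 6369), and Matn1 was highest in untreated B. The log2 change was below 0 for 5 of the 6, against 49.9% of all tested genes. It was -1.76 for Comp, a cartilage matrix protein, -0.61 for Sox9, a transcription factor of cartilage cells, and 0.21 for Cnmd. Hapln1 was not analysed, and the part of cartilage content in the collagen values was not tested.

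All 8 basement membrane collagens were highest in untreated A, and their log2 changes ran from -1.39 to -0.08 with a median of -0.75. Without untreated A, 4 of 8 lay below 0 and the median was 0.003. Col4a1 and Col4a2 form the type IV network found in most basement membranes. Col4a1 had 10503 and 2612 scaled reads in untreated A and B and 2270 and 2844 in RESTARTv3 replicates 1 and 2, and Col4a2 had 6926, 1770, 1465 and 1898. For both, untreated B lay between the RESTARTv3 libraries, and the log2 change was -1.04 ± 0.69 and -1.07 ± 0.68 with all libraries, and -0.02 ± 0.19 and -0.08 ± 0.21 without untreated A (standard errors).

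Col4a3, Col4a4 and Col4a5 form the network whose loss in humans causes Alport syndrome, a kidney disease with hearing loss. Col4a3 had 596 and 424 scaled reads in untreated A and B and 464 and 484 in RESTARTv3 replicates 1 and 2. Col4a5 had 1157, 591, 528 and 710. In both, the groups overlapped. Col4a4 had 1284, 859, 756 and 752, and both RESTARTv3 libraries lay below both untreated ones, with a log2 change of -0.46 ± 0.41, and of -0.16 ± 0.12 without untreated A (standard errors). Col4a6 had 319, 93.8, 104 and 201 scaled reads, and the groups overlapped. The sign of the log2 change turned without untreated A for Col4a3 (from -0.08 to 0.18), Col4a5 (from -0.42 to 0.03) and Col4a6 (from -0.24 to 0.51).

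Col15a1 and Col18a1 carry sugar side chains and lie at the outer face of basement membranes. Col15a1 had 3714 and 798 scaled reads in untreated A and B and 555 and 754 in RESTARTv3 replicates 1 and 2, so both RESTARTv3 libraries were lower, with untreated B close to replicate 2. Col18a1, the precursor of endostatin, had 3563, 628, 531 and 831. Untreated B lay between the RESTARTv3 libraries there, and the log2 change was -1.14 ± 0.84 with all libraries and 0.04 ± 0.32 without untreated A (standard errors).

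The 24 other collagens had a median log2 change of -0.94, with 19 of 24 below 0, and without untreated A a median of -0.29, with 18 of 24 below 0. Among them, the beaded filaments of type VI lie around cells and beside basement membranes. Both RESTARTv3 libraries lay below both untreated ones for all 5 measured chains, Col6a1, Col6a2, Col6a3, Col6a5 and Col6a6, against 21.4% of all tested genes. None passed the test, the median log2 change was -1.41, and without untreated A all 5 were still below 0, with a median of -0.42. Col6a1 had 10529 and 3138 scaled reads in untreated A and B and 1988 and 2946 in RESTARTv3 replicates 1 and 2. Col6a2 had 12808, 3332, 1985 and 3060, and Col6a3 had 6588, 2184, 1761 and 1962. In these 3 chains untreated A was at least 3.02-fold above untreated B, and untreated B was within 1.11-fold of RESTARTv3 replicate 2.

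Col6a5 and Col6a6, chains that can take the place of the Col6a3 product, showed larger differences on fewer reads. Col6a6 had 740 and 524 scaled reads in untreated A and B and 50.7 and 332 in RESTARTv3 replicates 1 and 2, from 489, 704, 84 and 228 recovered reads. The untreated pair was close, both RESTARTv3 libraries were lower, and replicate 1 lay far below replicate 2. Its log2 change of -2.32 ± 0.86 was the lowest of all collagens (limma voom, unadjusted p = 0.035, Benjamini-Hochberg adjusted p = 0.766), and it was -2.39 ± 0.94 without untreated A. RESTARTv3 replicate 1 decided its size, as the change was -0.90 without that library and -3.602 without replicate 2. Col6a5 had 423, 204, 126 and 87.5 scaled reads, with a log2 change of -1.44 ± 0.54 (limma voom, unadjusted p = 0.037, Benjamini-Hochberg adjusted p = 0.766) and of -0.86 ± 0.26 without untreated A. The 2 genes are neighbours in the annotation, with Col6a4 next in line, and how reads over overlapping genes were counted is not given in the sources used here.

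FACIT collagens sit on the surface of fibrils, and 6 of the 9 had both RESTARTv3 libraries below both untreated ones, against 21.4% of all tested genes. Col14a1, found on type I fibrils of tendon and skin, had 2707 and 1956 scaled reads in untreated A and B and 1256 and 924 in RESTARTv3 replicates 1 and 2. Here the untreated libraries were close to each other and both RESTARTv3 libraries were lower. The log2 change was -1.08 ± 0.41 (limma voom, unadjusted p = 0.039, Benjamini-Hochberg adjusted p = 0.766) and -0.81 ± 0.21 without untreated A (limma voom, unadjusted p = 0.024). Without untreated A, 2 collagens had an unadjusted p under 0.05, against 3.0% of all genes in either direction, and 0 passed the adjusted p.

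Col12a1, also on type I fibrils, had 7214, 6027, 4088 and 5525 scaled reads, again with a narrow untreated pair, and a log2 change of -0.47 ± 0.38 (standard error). Col16a1, found in skin and cartilage, had 6291, 1484, 1060 and 1198. Col22a1, known from junctions of muscle and tendon, had 11745, 3769, 2705 and 4147. Untreated A was 4.24-fold and 3.12-fold above untreated B for these last 2 genes, and for Col22a1 the groups overlapped.

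The 5 collagens with a log2 change above 0 were Col17a1, Col19a1, Col25a1, Col28a1 and Col10a1. Col17a1, a transmembrane collagen of epithelial anchoring sites, had 39.3 and 31.3 scaled reads in untreated A and B and 44.7 and 97.7 in RESTARTv3 replicates 1 and 2. Both RESTARTv3 libraries were higher, on 26, 42, 74 and 67 recovered reads, and the log2 change was 0.89 ± 0.56 (standard error). It was 0.58 without untreated B, 1.46 without RESTARTv3 replicate 1 and 0.33 without replicate 2. Col25a1, a transmembrane collagen of neurons, had 915, 1046, 1076 and 1238, and its groups did not overlap either, with a log2 change of 0.23 ± 0.38 (standard error). Col19a1, a FACIT collagen, had 30.2, 101, 123 and 62.7 scaled reads, and here untreated A was the lowest library. Its log2 change was 0.66 ± 0.71 with all libraries and -0.03 ± 0.44 without untreated A. Col10a1, the short chain collagen of hypertrophic cartilage, had 106, 91.6, 96.6 and 103 scaled reads, a narrow range in which the groups overlapped, and a log2 change of 0.02 ± 0.44 (standard errors).

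The difference between the 2 untreated libraries was wider in collagens than in most genes. Untreated A was the highest library for 38 of 43 collagens, against 43.1% of all tested genes, and the lowest for 3, against 44.2%. The 3 were Col19a1, Col25a1 and Col8a1. Over all genes the log2 ratio of untreated A to B went both ways, with a median of -0.006 and quartiles of -0.87 and 0.91. Its median over the collagens was 1.49. It was 2.11 for fibrillar, 1.87 for basement membrane and 1.24 for other collagens. Of the 43, 29 lay above the upper quartile of all genes, and 4 lay below 0: Col19a1, Col8a1, Col25a1 and Col28a1. Between RESTARTv3 replicates 1 and 2 the median log2 ratio was -0.37 over the collagens, against 0.03 over all genes.

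**Figure D3:**
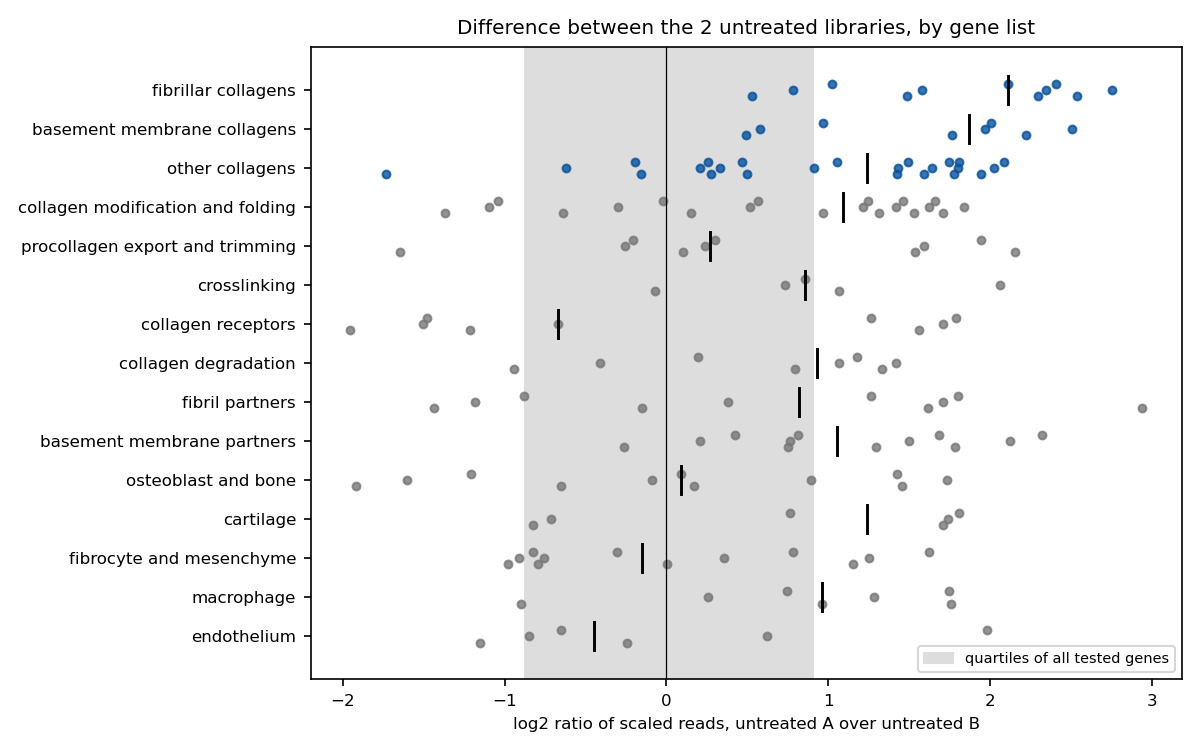
Log2 ratio of scaled reads, untreated A over untreated B, for single genes (points) of the 3 collagen groups and of other gene lists, with the list median (black bar) and the quartiles of all tested genes (gray band, -0.87 to 0.91). Fibrillar collagens had a median of 2.11, while bone markers were split around a median of 0.09 and collagen receptors around -0.67.

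Chains of the same collagen type did not all share this difference. The ratio of 2 genes in RPKM within a library cancels any scaling of the library. Its change between libraries cancels gene length as a divisor, but not a difference between libraries that goes with gene length. The Col4a1 to Col4a2 ratio was 1.81 and 1.76 in untreated A and B and 1.85 and 1.79 in RESTARTv3 replicates 1 and 2, so it barely moved. The Col1a1 to Col1a2 ratio was 4.33, 3.14, 3.27 and 3.41. Col1a1 was thus relatively higher in untreated A, where the other 3 libraries lay within 1.08-fold of each other.

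Larger shifts were seen in types VIII, IX and XI. The Col8a2 to Col8a1 ratio, for the chains of the hexagonal networks under corneal and vascular endothelium, was 9.80 in untreated A and 1.83, 1.82 and 1.87 in the other libraries. The Col9a2 to Col9a1 ratio was 64.1 against 19.0, 19.2 and 19.9. The Col11a2 to Col11a1 ratio was 24.3 against 7.90, 8.05 and 6.73. Untreated A thus stood apart in these ratios too, and untreated B did not differ from the RESTARTv3 libraries by more than 1.20-fold in any of these 3 ratios. A smaller shift in the other direction was seen for Col6a1 to Col6a2, at 1.33 against 1.52, 1.62 and 1.56. The chain relatively higher in untreated A had the shorter span for Col8a2 and Col8a1 (27.5 and 130 kb). This was also so for Col9a2 and Col9a1 (15.8 and 75 kb) and Col11a2 and Col11a1 (28.2 and 190 kb). The same held for Col1a1 and Col1a2 (16.8 and 35.9 kb) and for Col9a2 and Col9a3 (15.8 and 24.1 kb). It also held for Col6a2 and Col6a3 (27.9 and 77.1 kb). In Col4a4 to Col4a3, Col5a1 to Col5a2 and Col6a1 to Col6a2 the chain relatively higher in untreated A had the longer span. Col4a5 to Col4a6 was at 5.23 and 9.10 in untreated A and B and 7.29 and 5.09 in RESTARTv3 replicates 1 and 2. Untreated A did not stand apart there. Over the collagens, the log2 ratio of untreated A to B had a Spearman correlation of -0.39 with gene span. The part of gene span in these ratios was not tested. Col4a4 to Col4a3 was the one plotted ratio in which the groups separated more than their libraries did, at 2.10 and 1.98 in untreated A and B and 1.59 and 1.52 in RESTARTv3 replicates 1 and 2. The 2 genes are neighbours in the annotation. Across types, Col2a1 to Col11a2 also separated the groups, by less, at 0.485 and 0.443 against 0.362 and 0.390. Both pairs were singled out after their values were seen.

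**Figure D4:**
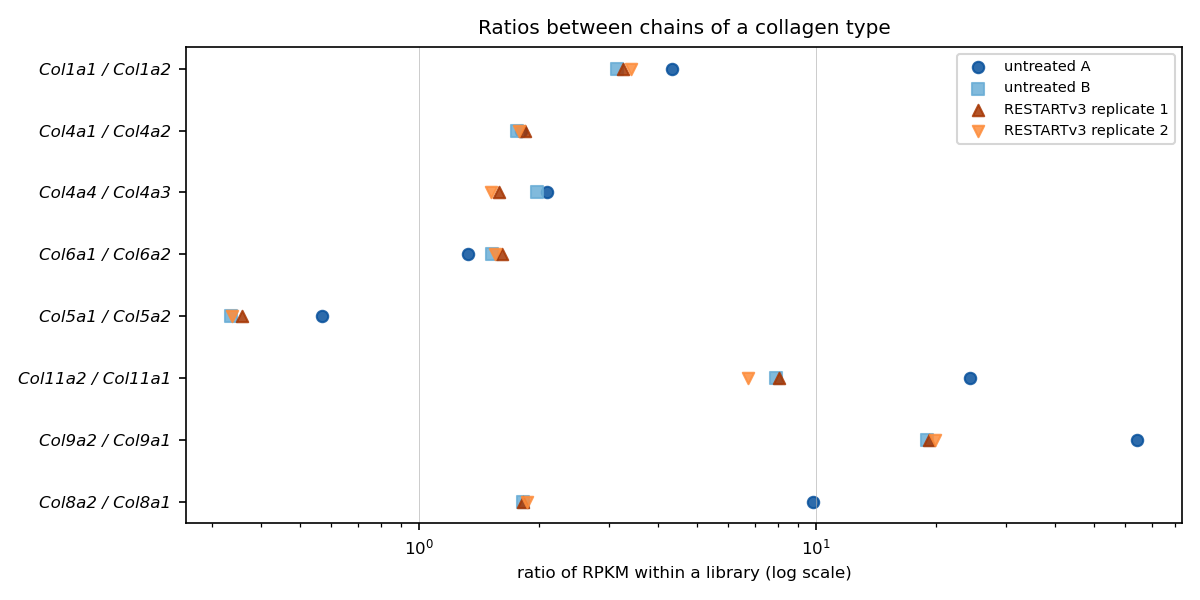
Ratio of RPKM between chains of a collagen type (log axis) in each library. Untreated A stands apart for Col8a2 to Col8a1 (9.80 against 1.82 to 1.87), Col9a2 to Col9a1 and Col11a2 to Col11a1, while Col4a1 to Col4a2 lies between 1.76 and 1.85 in all 4 libraries.

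Genes that make, tie and hold collagen were read beside the family. They were taken in 7 lists of 83 genes, 74 of which were tested on recovered reads and 39 on the deposited scale, and 0 passed in either fit (limma voom and limma trend, Benjamini-Hochberg). On recovered reads, 1 of the 74 had an unadjusted p under 0.05, against 396 of all 18485 tested genes (limma voom). In the list of chain modification and folding, 16 of 20 lay below 0, with a median log2 change of -0.39 and a median of -0.03 without untreated A. Serpinh1, the collagen chaperone of the endoplasmic reticulum, had 16121 and 6816 scaled reads in untreated A and B and 5320 and 6602 in RESTARTv3 replicates 1 and 2. As with Col1a1, untreated A stood apart from the other 3. P4hb, a subunit of prolyl hydroxylase, had 10441, 7295, 7349 and 7624, with a narrower range. Plod2, a lysyl hydroxylase picked after its values were seen, had 932, 2404, 1966 and 2233, so that untreated A was the lowest library for this enzyme.

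Genes for export and trimming of procollagen had a median of -0.33 (8 of 10 below 0), and crosslinking enzymes one of -0.63 (4 of 5 below 0). Without untreated A these medians were -0.064 (6 of 10) and -0.12 (3 of 5). Bmp1, which cuts the end of procollagen, had 25733, 8868, 8267 and 10600 scaled reads. Lox, a lysyl oxidase that crosslinks fibrils, had 2622, 2753, 2701 and 2727, nearly level in all 4 libraries. Its relative Loxl1 had 5727, 1376, 998 and 1006. The 2 crosslinking enzymes thus differed in whether untreated A stood apart.

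Receptors for collagen had 9 measured members with a median of 0.14 (4 of 9 below 0), and of 0.02 (3 of 9) without untreated A. Itgb1, the shared beta chain of collagen integrins, had 4960 and 11511 scaled reads in untreated A and B and 10693 and 12841 in RESTARTv3 replicates 1 and 2, and was lowest in untreated A. Mrc2, which takes up collagen fragments, had 22772, 6581, 4971 and 6341. Of the degradation list, 6 of 8 lay below 0, with a median of -0.36, but without untreated A 3 of 8 did and the median turned to 0.077. This list holds inhibitors of collagen breakdown as well: Timp1, Timp2 and Timp3, at log2 changes of -0.48, -0.59 and 0.36. Of all tested genes, 1.37% had an unadjusted p under 0.05 in the higher direction (limma voom). Mmp13, a collagenase of bone and cartilage, was the single partner gene with an unadjusted p under 0.05 and was chosen after its values were seen. It had 1113, 2136, 3322 and 3755 scaled reads, both RESTARTv3 libraries were higher, and its log2 change was 1.18 ± 0.45 (limma voom, unadjusted p = 0.040, Benjamini-Hochberg adjusted p = 0.766).

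Of 12 basement membrane partners, such as laminins and nidogens, 12 lay below 0, with a median of -0.56, and of -0.09 without untreated A. Hspg2, the proteoglycan perlecan, had 30080, 6029, 5069 and 5487 scaled reads, and Lamc1, a laminin chain, had 10243, 6094, 5134 and 5974. Untreated A was the highest library for both. Of 10 fibril partners, 6 lay below 0, with a median of -0.65, and without untreated A 8 did, with a median of -0.22. Fn1, fibronectin, had 58449 and 16774 scaled reads in untreated A and B and 13172 and 22593 in RESTARTv3 replicates 1 and 2. Dcn and Lum, small proteoglycans on fibrils that were picked from the list after their values were seen, were lowest in untreated A, at log2 ratios of A to B of -1.18 and -1.44.

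Bone markers were split. The summed level of 11 markers was 68890 and 103622 scaled reads in untreated A and B and 104769 and 108706 in RESTARTv3 replicates 1 and 2. This sum leans on the markers with the most reads, Spp1 (17766, 54049, 60424 and 53776) and Ibsp (8547, 19690, 16024 and 22352). Of the 11, 5 were highest in untreated A, against 43.1% of all tested genes, and 4 were lowest, against 44.2%. The median log2 change was -0.04, with 6 of 11 below 0, against 49.9% of all tested genes. Without untreated A it was -0.15, with 8 of 11 below 0, against 50.6%. The log2 ratio of untreated A to B was -1.61 for Spp1, osteopontin, and -1.20 for Ibsp, bone sialoprotein. It was 1.42 for Bglap, osteocalcin, and 1.45 for Alpl, the alkaline phosphatase of mineralizing cells, a pair picked after their values were seen. Summed fibrocyte and mesenchyme markers (12 of 12 listed) were at 208551, 189048, 164368 and 176910 scaled reads, and summed macrophage markers at 15829, 7600, 10020 and 10775, with Ptprc not analysed here. Endothelial markers summed to 6353, 5884, 5275 and 5844. The part of these tissues in the collagen values was not tested.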

How the data were processed

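The authors deposited 1 table of RPKM values for 4 libraries. Per the methods and the submitters' notes, ribosomal RNA was depleted, stranded low-input libraries were made, reads were trimmed (cutadapt 4.2), freed of PCR duplicates (SeqKit), stripped of molecular identifiers (UMI-tools 1.0.0), aligned to GRCm39 (STAR 2.7.10b), filtered (SAMtools 1.14) and counted (HTSeq 1.14), and genes whose replicates differed by more than 1 on the log2 scale were to be dropped. The table is wider: read ratios within a group span -3 to 3, with 2398 of all genes and 17 of 43 collagens within 1 in both groups. No listed value is 0, and genes beyond that span are not analysed here. Both untreated columns carry one name and are called A and B. There were 0 columns of other samples.

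The RPKM values are whole reads over gene span and library total: 100% of 21230 genes came out whole within 0.001. Lengths of 40 of 43 collagens lay within 1% of an older annotation (GRCm38.p6, used for names, lengths and neighbours); for Col11a2, Col20a1 and Col22a1 recovered reads may be off by a whole factor, the same in all libraries. Duplicates were removed, but counting error covers one source of error.

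Groups were compared on log2(RPKM + 0.5), for genes with mean RPKM 1 or more, by limma 3.58.1 with a trend (R 4.3.3; two-sided, Benjamini-Hochberg over all genes at 0.05). This scale understates changes of low genes. limma voom on recovered reads (mean of at least 10, median-of-ratios scaling) is given beside it, and log2 changes in the text are from it unless stated. With 2 libraries a group, the smallest p of an exact permutation test is 0.333. The fits were tested on simulated data. Alternatives changed the pseudocount, filter, scaling and values tested, and left out each library; the scaled fits and overlap counts without each library were added after seeing the data.

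Named by rule were, in each group, the 4 collagens with the most reads, the type II, IX, XI and IV chains, Col10a1, the 3 largest and 3 smallest log2 changes, and genes whose groups do not overlap; in other lists, up to 3 members with the most reads. Members, groups, lists and rules were chosen with earlier results of these data known.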

Additional observations from a re-analysis of the deposited data

How the results depend on the processing

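No paired analysis was possible because the untreated columns carry no replicate numbers. For single collagens, 235 of 268 alternative values kept direction and side of the threshold and 9 changed sign. The rest passed the threshold in the same direction, all without untreated B, where untreated A alone stands for its group. With no filter 12 genes passed in all, and 2 passed among genes whose replicates agreed within 1 on the log2 scale, a limit that leaves 1 collagen. Relative to all tested genes, the median of tested collagens was -0.36 with no filter and -0.084 with that limit (also -0.084 for the 1 fibrillar member), and that of other collagens was -0.15 with no filter. No basement membrane collagen could be tested at a mean RPKM of 1. Col10a1 was at -0.22 with a minimum of 0.1 RPKM and a pseudocount of 0.05. Leaving out each library in turn, collagens called ranged from 0 to 10 on scaled values and from 0 to 31 on recovered reads. All genes called ranged from 0 to 3 on deposited values, 0 to 2201 on scaled values and 0 to 8706 on reads, and partner genes from 0 to 21 on scaled values and 0 to 52 on reads. The highest of each of these counts came without untreated B. The relative median of tested collagens ranged from -1.58 to -0.26 on deposited values and from -1.74 to -0.16 on reads. On reads the ranges were -2.42 to -0.14 for fibrillar, -1.65 to 0.0057 for basement membrane and -1.67 to -0.29 for other collagens, and on deposited values -1.49 to -0.30 for other collagens. Single genes that changed sign ranged from -0.11 to 0.13 (Col10a1), -2.48 to 0.036 (Col18a1), -0.034 to 1.63 (Col19a1), -0.35 to 0.18 (Col4a3), -0.96 to 0.027 (Col4a5) and -1.28 to 0.51 (Col4a6). Collagens without overlap ranged from 20 to 38 in the lower and from 3 to 6 in the higher direction, against 32.8 to 45.1% and 26.2 to 45.8% of all tested genes. The share of the library total kept its sign, at -1.86 to -0.24 percentage points. Why these values moved was not tested. With 2 libraries a group, the spread between untreated A and B sets the precision, and changes within that spread were not detectable.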
